A study of Mus musculus with 1600 samples.

Results

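The genes described here are 35 proliferation genes, which cells transcribe when they copy their DNA and divide. They were chosen by name from the 45792 genes in the count tables, and all 35 had a row: 22 act mainly in G2 phase and mitosis, 11 in DNA replication or the supply of its nucleotides, and Hmgb2, a chromatin protein, and Stmn1, a microtubule regulator, were kept apart. The samples were single wells of a Fluidigm C1 array, a chip that captures cells and makes cDNA in separate wells, loaded with cells from whole glomeruli, the filtering units of the kidney. All mice were Nos3-/- on the C57BL/6 strain, so controls and diabetic animals alike lacked endothelial nitric oxide synthase, and all were 10 weeks old. The diabetes group received 50 µg streptozotocin per g body weight on each of 5 consecutive days from 8 weeks of age, and the controls were littermates given citrate vehicle. Glomeruli of 3 mice were pooled per group in each of 2 experiments, so there were 2 pools per group. Wells of a pool share its 3 mice and are not replicates of a condition.

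A dividing cell passes through G1, S, G2 and M phases under the control of cyclins and their kinases. During S phase the MCM2-7 helicase unwinds the DNA, PCNA clamps the polymerases to it, and ribonucleotide reductase, thymidylate synthase and thymidine kinase supply nucleotides. The genes of G2 and mitosis encode cyclin B with its kinase CDK1, the aurora and polo kinases, spindle motors and kinetochore proteins; they are held silent in resting cells, while many replication genes keep a low basal expression. Most cells of an adult glomerulus are at rest, and podocytes, which wrap the capillaries, are regarded as unable to complete division.

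Promoters of the 2 groups of genes differ in known ways, so the bases next to their starts were read first. Mitosis genes are known for a CHR element paired with CCAAT boxes, and replication genes for E2F sites. The RefSeq promoter table for GRCm38.p6 held 18 of the 22 mitosis genes, 10 of the 11 replication genes and 1 of the other 2, each as a window from 250 bases before to 50 bases after the start. Mki67 and Top2a were detected in all 14 kept single-cell wells with a local mitotic maximum (defined below with the wells). Tpx2 was too, but had no window in the table. Mcm6 was the replication gene with the largest difference between diabetes and control. The 250 bases before the start are printed for Mki67, Top2a and Mcm6. They lie at chr7:135716380-135716629 for Mki67, chr11:99024190-99024439 for Top2a and chr1:128359706-128359955 for Mcm6, each read on the minus strand, 5′ to 3′. Capitals mark matches on either strand to 3 motifs, which may overlap. The CHR element was searched as the letters TTTGAA and also in the variant form TTCGAA. The CCAAT box was searched by its name's letters. E2F-type sites were searched as TTTCCCGC, TTTGGCGC, TTTCGCGC and TTTGCCGC.
Mki67: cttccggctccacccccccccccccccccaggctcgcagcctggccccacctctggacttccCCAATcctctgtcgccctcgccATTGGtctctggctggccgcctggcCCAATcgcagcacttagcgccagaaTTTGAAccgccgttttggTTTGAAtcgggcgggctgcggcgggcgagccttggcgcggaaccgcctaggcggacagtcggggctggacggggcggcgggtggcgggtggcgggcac
Top2a: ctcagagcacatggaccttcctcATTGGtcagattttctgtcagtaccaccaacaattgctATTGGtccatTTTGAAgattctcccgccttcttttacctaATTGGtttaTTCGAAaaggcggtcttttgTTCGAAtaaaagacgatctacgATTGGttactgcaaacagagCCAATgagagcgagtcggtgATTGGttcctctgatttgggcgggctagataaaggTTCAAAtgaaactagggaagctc
Mcm6: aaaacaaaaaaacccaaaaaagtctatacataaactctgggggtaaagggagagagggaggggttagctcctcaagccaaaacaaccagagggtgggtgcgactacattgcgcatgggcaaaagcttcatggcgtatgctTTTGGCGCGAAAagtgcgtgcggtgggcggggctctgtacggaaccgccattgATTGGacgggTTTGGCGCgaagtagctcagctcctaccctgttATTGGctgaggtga
Before its start Mki67 held 2 CHR matches, with 92 bases between the nearer one and the start, and 3 CCAAT matches. Top2a held 4 CHR and 6 CCAAT matches, and Mcm6 held no CHR match, 2 CCAAT matches and 3 E2F-type matches, of which the first 2 overlap. Over the whole windows, CHR letters occurred in 14 of 18 mitosis genes (77.8%), in 2 of 10 replication genes (20%) and in 19.4% of all 27025 windows in the table. In the 250 bases before the start alone, they occurred in 8 of 18 mitosis genes (44.4%), 2 of 10 replication genes (20%) and 17.4% of all. CCAAT occurred in 16 mitosis genes (88.9%), 8 replication genes (80%) and 37.9% of all windows. E2F-type letters occurred in 1 mitosis gene, Mcm6 and 3 other replication genes, and 2.32% of all windows. A match describes letters only and is not a measured binding site.

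The plates held 189 and 218 wells imaged with 1 cell in the control pools of experiments 1 and 2, and 188 and 238 in the diabetes pools. Of these, 639 wells had at least 500 genes and at most 30% mitochondrial reads and were kept: 120 and 203 control, 128 and 188 diabetes. The median kept well held 32222 and 219072 reads in the control pools and 43577 and 176715 in the diabetes pools, so experiment 2 was the deeper. Clusters were named from markers, which gave 335 endothelial-like wells, 129 mesangial-like wells (the contractile support cells between capillaries), 78 immune-like and 69 podocyte-like wells, and 28 of smaller classes. Podocyte-like and endothelial-like wells each carried at least 3 of their own markers in every well, whereas 67 of the 78 immune-like wells did (4 of 7, 4 of 6, 25 of 29 and 34 of 36 by pool), which makes the immune-like name unsure. Of the mesangial-like wells 29 of 30 and 67 of 67 did in the control pools, and 6 of 8 and 24 of 24 in the diabetes pools. The mesangial-like name is thus less sure in the diabetes pool of experiment 1. Markers of other cells were common: 242 of 304 wells of other classes carried 3 or more endothelial markers, 254 of 570 podocyte markers and 96 of 561 immune markers. On the CPM scale, in which a gene's reads are scaled to the same total in every library or pool, Xist reached 356 and 442 in the control pools against 1.42 and 1.4 in the diabetes pools, and 4 Y-linked genes together 0.279 and 0.605 against 154 and 160. The sexes of the pools therefore differ between groups although the labels call the mice sex-matched, and sex and diabetes cannot be told apart in any comparison below.

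Few glomerular cells carried several mitosis genes. A mitosis gene was counted as detected in a well at 2 or more reads, and a well with at least 5 of the 22 was called mitotic. There were 26 such wells among 639 (4.07%): 1 of 120 and 12 of 203 in the control pools and 4 of 128 and 9 of 188 in the diabetes pools. No mitosis gene was detected in 514 wells, exactly 1 in 75 and 2 to 4 in 24. Just under the limit 3 wells had 4 genes, no well had 5, and 4 wells had 6, while the richest had 21. Podocyte-like wells, the class that should lack these genes, gave 1 mitotic well in 69 (1.45%, exact binomial 95% interval 0.0367 to 7.81) at a median depth of 114986 reads. Endothelial-like wells gave 13 in 335 (3.88%, 2.08 to 6.54) at 128074 reads. These intervals overlap, and like all intervals here they cover counting error only.

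Some of the 26 wells lay next to a far richer one. Wells imaged as empty also held mitosis genes: 13 of 588 had 5 or more. Along the array column, wells 1 row from a maximum with at least 300 mitotic reads held a median of 1.13% of its mitotic reads in experiment 1 (7 neighbours of 4 source wells, 0 to 9.28%) and 1.41% in experiment 2 (21 neighbours of 11 sources, 0.0648 to 12.8%). At 2 rows the medians were 0.0707% and 0.111%, and for the adjacent well of the same row they were 0% (0 to 0.197%) and 0.0138% (0 to 74.2%). The medians were higher along columns than along rows, although 1 of the 21 same-row neighbours in experiment 2 held 5 or more mitosis genes. In the 34 wells 1 row from any of the 18 maxima, including the 3 with fewer reads, 170 of 175 detections of a mitosis gene (97.1%) were of a gene also detected in the maximum itself. How reads came to be shared between neighbouring rows was not tested.

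**Figure D1:**
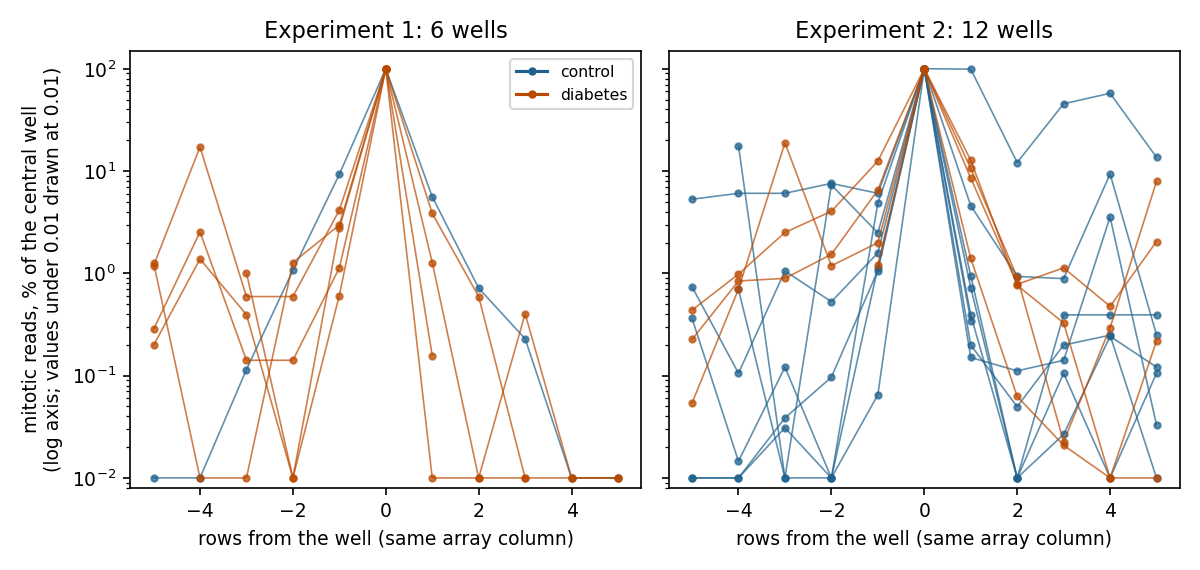
Mitosis-gene reads in each well as a percent of the local maximum (vertical log axis) against rows from that maximum along the array column (horizontal axis), in experiments 1 and 2, one line for each of the 18 maxima, with values under 0.01% drawn at 0.01%. For the 15 maxima with at least 300 reads the neighbours 1 row away sit at a median of 1.13% and 1.41%, and those 2 rows away at 0.0707% and 0.111%.

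A stricter count was therefore added after the data had been seen: wells with more mitotic reads than every other well within 5 rows of their column. This kept 14 of the 26, and the other 12 all lay within 5 rows of such a maximum. Over all image classes there were 18 maxima, of which 14 were kept single cells, 1 a well with 2 cells, 3 wells with more than 2 cells or debris, and none an empty well. The 14 fell as 1 of 120 and 7 of 203 control wells and 4 of 128 and 2 of 188 diabetes wells. By cluster they were 5 endothelial-like, 4 mesangial-like and 5 immune-like wells, some with markers of several classes, and no podocyte-like well was among them. With a window of 3 rows 16 wells remained, and with 10 rows 13.

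The 14 wells differed widely in how much of their RNA came from mitosis genes. In the control pool of experiment 1 the only such well was endothelial-like, detected 13 mitosis and 10 replication genes, and gave the mitosis genes 10583 CPM. Its Top2a, the topoisomerase that untangles chromosomes, stood at 2480 CPM and Mki67, the classical proliferation antigen, at 1868 CPM. In the control pool of experiment 2 an endothelial-like well held 21 of the 22 mitosis genes at 18836 CPM in sum, with Mki67 at 6673, Top2a at 3681 and Cenpf, a kinetochore protein, at 1358 CPM. The other endothelial-like wells of that pool summed to 11282 CPM with 17 mitosis genes and to 3718 CPM with 8. A mesangial-like well of the same pool had the highest sum, 19487 CPM over 18 genes. It had no replication gene detected, and its Top2a (4166 CPM), Cenpf (3141) and Mki67 (2516) were all high. The remaining mesangial-like wells of that pool summed to 1241 and 656 CPM. The first of these also carried 11 of 14 endothelial markers and 25 reads of Ptprc, 36 of Nkg7 and 7 of Cd3e. The second carried markers of endothelial cells (14 of 14), mesangial cells (10 of 10) and podocytes (7 of 9) together, so its class is unclear, and an empty well 1 row away held 65.5 mitotic reads beside its own 66. One immune-like control well summed to 11177 CPM with 14 genes and held 417 reads of Ptprc, the pan-leukocyte CD45, 275 of Nkg7 and 21 of Cd3e, both lymphocyte genes, but 2 of Lyz2 and none of C1qa, both macrophage genes. It also held 407 reads of the mesangial gene Itga8, and its mesangial markers summed to 4113 CPM against 2379 CPM for immune markers, so its class is unclear too.

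In the diabetes pool of experiment 1 all 4 wells were immune-like, with mitotic sums of 6168, 4762, 3178 and 1883 CPM and 14, 15, 10 and 8 mitosis genes. All 4 held reads of Lyz2 (300.8 to 911.7), C1qa (15.33 to 151.2) and Csf1r (45 to 89), genes of macrophages, and none of Cd3e or Nkg7. In the diabetes pool of experiment 2 an endothelial-like well summed to 15255 CPM over 16 genes. The other, a mesangial-like well with 6 genes and 2200 CPM, carried all 14 endothelial markers, at 8512 CPM, as well as all 10 mesangial ones, at 5806 CPM, so its markers go against its class. Of the 14 wells, 12 had more reads than the median of the other wells of their class and pool.

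**Figure D2:**
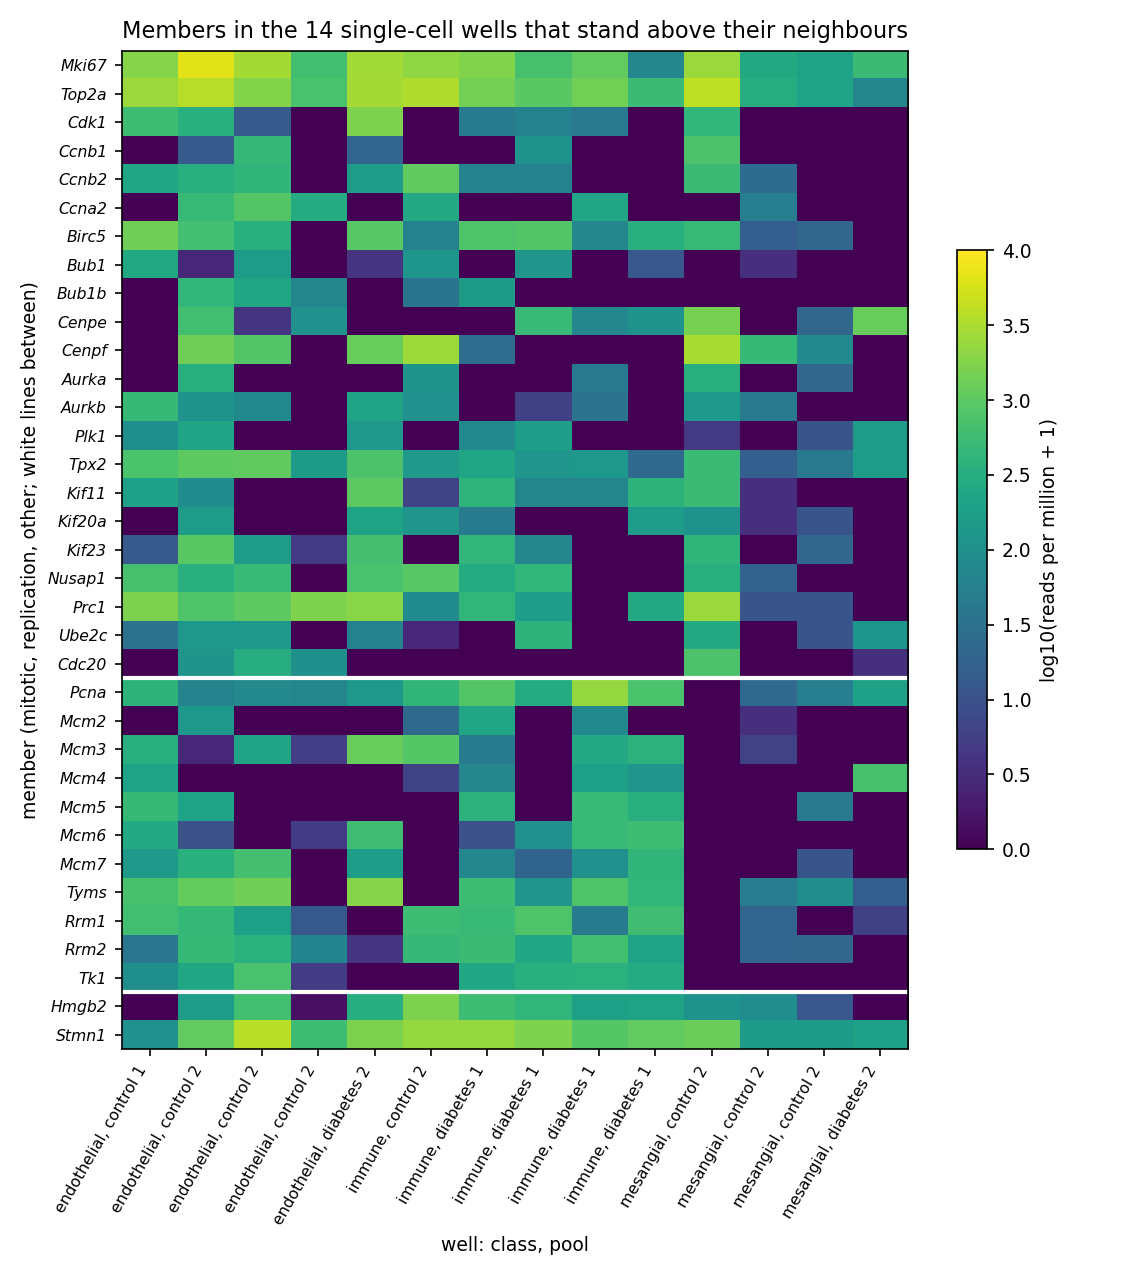
Level of each of the 35 genes (rows, colour as log10 of CPM + 1) in each of the 14 single-cell wells that exceed every well within 5 rows (columns, by class and pool). Mki67, Top2a, Tpx2 and Stmn1 are filled in all 14 wells, while the MCM genes are patchy.

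The members varied in how tightly they were tied to these wells. Mki67, Top2a, Tpx2, a spindle assembly factor, and Stmn1 were detected in all 14, Pcna in 13, Birc5 (survivin, of the chromosomal passenger complex) in 12, and Prc1, Tyms, Rrm1 and Rrm2 in 11 each. At the other end Cdc20, an activator of the anaphase-promoting complex, Bub1, a spindle checkpoint kinase, and Mcm2 were detected in 4. Among the 613 kept wells that were not mitotic, Mki67 was detected in 3.92%, Top2a in 3.75% and Tpx2 in 2.28%, and Aurkb, Bub1, Kif11 and Kif20a in none. Because the count of mitosis genes chose the wells, these shares are a description.

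Replication genes were more widely spread. In the same 613 wells Pcna was detected in 25%, Tyms in 15.2%, Rrm1, the large subunit of ribonucleotide reductase, in 11.9%, and Mcm3 in 11.4%. Rrm2, its small subunit, was detected in 1.31% and Tk1, thymidine kinase, in 0.979%. The 14 wells held 84.2% of all Rrm2 reads and 81.5% of Tk1 reads in kept wells, as against 15.5 to 26.3% for the other 9 replication genes. The mitosis genes ranged from 36.4% for Cdc20 and 65.1% for Plk1 to 94.4% for Birc5. By this share of pooled reads Rrm2 and Tk1 lay within the range of the mitosis genes, which had chosen the wells. Cdc20 was the mitosis gene least concentrated in the 14 wells. Stmn1 (52.2%) and Hmgb2 (37.5%) lay between. Single pools could differ: in the control pool of experiment 1, 95.2% of Rrm2 reads lay in a well other than the local maximum, which held 3. In the diabetes pool of experiment 1 Tk1 was detected in 9 wells. There, 13.1 of its 37.2 CPM remained without the local maxima and their neighbours. Pcna and Ccnb1 have pseudogene copies in the annotation, and no source used here says how reads fitting several places were handled, so their detections are less certain. Counts that were not whole also occurred for other members, such as Hmgb2 (89.44) and Stmn1 (8.67), each in a local maximum. Detections of other members may thus be less certain too.

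Lone detections of a mitosis gene were counted apart. The 75 wells with exactly 1 gene held a median of 4 reads of it, 49 of them 2 to 9 reads and 8 at least 100, with 428 reads of Cdc20 as the highest. Top2a accounted for 14 of these wells, Mki67 for 11 and Tpx2 for 8. They numbered 3 and 30 in the control pools and 5 and 37 in the diabetes pools, so in both groups the deeper experiment 2 held most of them. Podocyte-like wells held 11 of the 75.

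Wells with at least 5 of the 11 replication genes numbered 27, of which 13 were also mitotic. They made up 2 of 120 (1.67%) and 7 of 203 (3.45%) control wells, and 9 of 128 (7.03%, 3.27 to 12.9) and 9 of 188 (4.79%) diabetes wells. Of the 9 in the diabetes pool of experiment 1, 8 were immune-like, or 27.6% (12.7 to 47.2) of that pool's 29 immune-like wells. The other pools gave 0 of 7, 1 of 6 and 1 of 36. The immune-like wells of the 2 diabetes pools were unlike: the median well held 50324 CPM of immune markers in experiment 1 and 4945 CPM in experiment 2, where the 1 replication well had 4 reads of Lyz2 and none of C1qa, Csf1r or Ptprc. All 8 held Lyz2, C1qa and Csf1r reads and no Cd3e or Nkg7 reads. Besides the 4 mitotic wells they included 4 with 8 to 10 replication genes but only 1 to 4 mitosis genes. The highest replication sum of any kept well, 5823 CPM with all 11 genes, belonged to this group. In the diabetes pool of experiment 2, 6 of the 9 replication wells lay in 1 array column, between rows 15 and 28, so that pool's count rests largely on neighbouring wells.

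**Figure D3:**
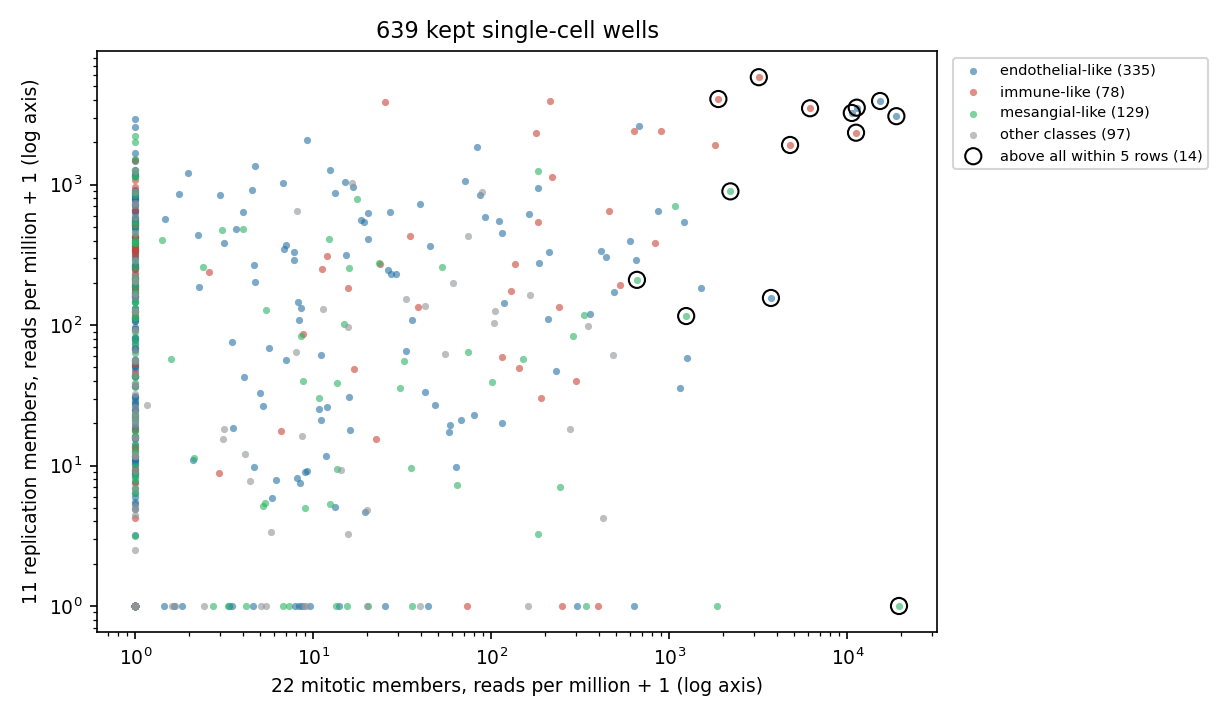
Sum of the 11 replication genes (vertical log axis, CPM + 1) against the sum of the 22 mitosis genes (horizontal log axis, CPM + 1) in 639 kept wells, coloured by class, with the 14 local maxima circled. Most circled wells are high on both axes, and 1 mesangial-like well at 19487 mitotic CPM has no replication reads.

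The share of mitotic wells did not differ detectably between diabetes and control. It was 0.833% (0.0211 to 4.56) and 5.91% (3.09 to 10.1) in the control pools and 3.12% (0.858 to 7.81) and 4.79% (2.21 to 8.89) in the diabetes pools. The mean difference, diabetes minus control, was 0.584 percentage points (exact permutation test, two-sided, p = 1). The control pools lay on either side of both diabetes pools. With 2 pools against 2 this test cannot give a p below 0.333, so no share could pass 0.05. In endothelial-like wells the shares were 1.92% and 6.32% in control and 0% and 5.61% in diabetes, a difference of -1.32 percentage points (exact permutation p = 0.667). The exact interval of 0 among 81 wells reaches 4.45%, and the approximate upper limit for 0 wells found, 3 divided by the number of wells, is 3.7%. For replication wells both diabetes pools exceeded both control pools, by 3.35 percentage points on average (exact permutation p = 0.333, the smallest possible).

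The shares were also counted at equal depth. Each well was thinned to 10000 reads, leaving out 13 and 14 shallower wells of experiment 1. Because 1 read then counted as detection, depth and this limit changed together. Mitotic wells then numbered 1 of 107 and 7 of 203 in control and 4 of 114 and 3 of 188 in diabetes. Replication wells then numbered 2 of 107 and 2 of 203 in control against 8 of 114 and 1 of 188 in diabetes, so in experiment 2 control was then the higher. The same held at full depth for replication wells at 1 count as detection (7.88% control, 5.85% diabetes) and for local replication maxima within 5 rows (1.48% and 1.06%). In experiment 1 diabetes stayed the higher by both counts (1.67% and 10.2%, and 1.67% and 6.25%). Without thinning, the local maxima alone gave mitotic shares of 0.833% and 3.45% in control and 3.12% and 1.06% in diabetes. In endothelial-like wells the thinned counts were 1 of 44 and 4 of 95 in control and 0 of 76 and 2 of 107 in diabetes. Local maxima there made up 1.92% and 3.16% of control wells and 0% and 0.935% of diabetes wells, without thinning. By both counts both diabetes pools lay below both control pools (exact permutation p = 0.333, the smallest possible), on very few wells.

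**Figure D4:**
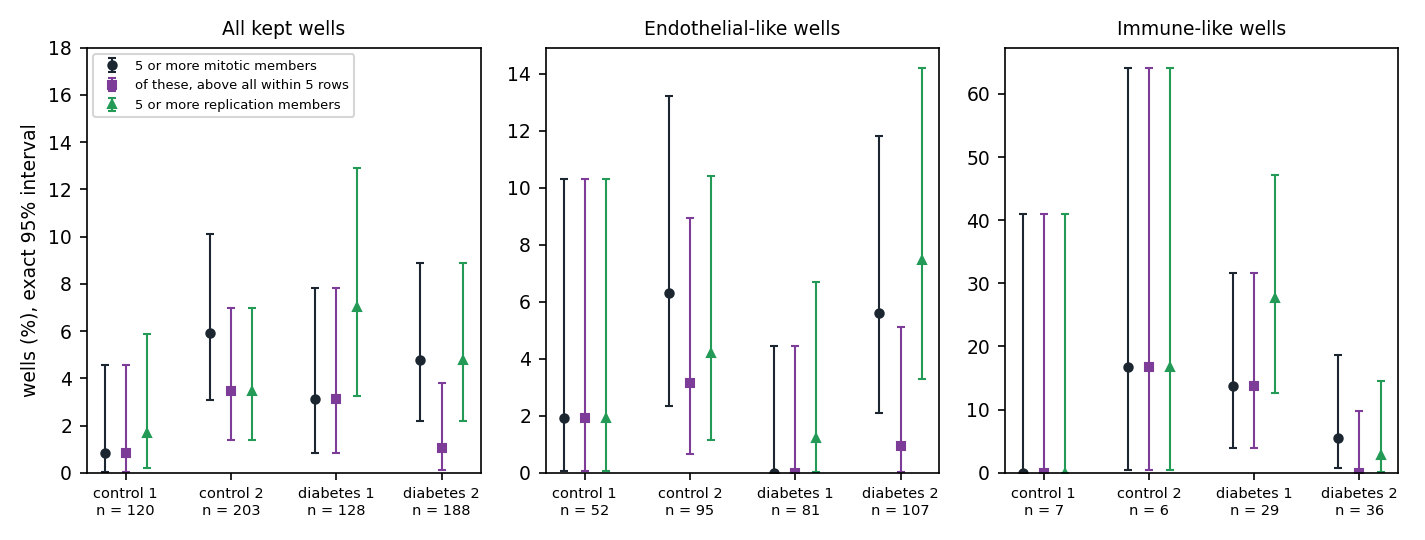
Percent of wells (vertical axis) with at least 5 mitosis genes, of local mitotic maxima, and with at least 5 replication genes, by pool, in all kept, endothelial-like and immune-like wells; bars are exact 95% binomial intervals, and the vertical scale differs between panels. Over all kept wells the control pools at 0.833% and 5.91% enclose both diabetes pools for mitotic wells.

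Summed over the wells of a pool, where more cells with a transcript and more transcript per cell cannot be told apart, the 22 mitosis genes reached 189 and 519 CPM in control and 337 and 214 CPM in diabetes. Without the 14 local maxima the sums were 5.46, 46.8, 62.1 and 64.4 CPM in the same order, and without the wells within 5 rows of a maximum as well to 5.63, 36.3, 56.6 and 29.9 CPM. A handful of wells thus carried most of each pool's total. The replication genes reached 257 and 273 CPM in control and 678 and 321 CPM in diabetes, and 204, 212, 428 and 284 CPM without the maxima.

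In edgeR's quasi-likelihood test on the summed counts, with the experiment as a block, no member passed an adjusted p of 0.05 in any class. Over all kept wells 35 members were tested, and 0.0783% of all 15330 genes passed. In endothelial-like wells 34 were tested (0.0305% of all genes passed), in mesangial-like wells 17 (0.0187%) and in immune-like wells 24 (0.0371%). With no adjustment, 2, 3, 1 and 0 members had a p under 0.05, beside 1127 of 15330, 607 of 13112, 396 of 10691 and 118 of 8089 genes in all. With so few genes passing after adjustment, a count of 0 among so few members says little about them.

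The largest difference over all wells was that of Mcm6, a subunit of the replicative helicase (ENSMUSG00000026355.9). It stood at 9.87 and 3.74 CPM in the control pools and at 107 and 21.9 CPM in the diabetes pools. The log2 fold change was 3.05 (SE 0.59, edgeR unadjusted p = 0.00155, adjusted p = 0.223). It was detected in 4 and 9 control wells and in 19 and 21 diabetes wells. Without the local maxima and their neighbours it remained at 5.29 and 4.5 CPM against 93.4 and 12.6 CPM. DESeq2 called the difference (adjusted p = 0.000138). With 1 pool left out, a fit in which the block is dropped and the lone pool is assumed to vary like the other group, edgeR gave log2 fold changes from 1.89 without the diabetes pool of experiment 1 (adjusted p = 0.885) to 3.99 without that of experiment 2 (adjusted p = 0.00948), the only one of these fits that passed. With all 4 pools and no block the adjusted p was 0.735. In immune-like wells, which numbered 7 and 6 in the control pools and 29 and 36 in the diabetes pools, Mcm6 stood at 5.79, 4.37, 234 and 4.18 CPM, and in endothelial-like wells at 23.6, 7, 70.9 and 26.3 CPM. The part of the immune-like wells in the pooled difference was not tested.

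Pcna, the polymerase clamp (ENSMUSG00000027342.12), measured 66.3 and 27.5 CPM in the control pools against 183 and 50.6 CPM in the diabetes pools. The higher control value lies above the lower diabetes value, but within each experiment diabetes was the higher. Its log2 fold change was 1.23 (SE 0.37, edgeR unadjusted p = 0.0142, adjusted p = 0.549). Without the diabetes pool of experiment 1 it was 0.30, and without the control pool of experiment 1 it was 1.98. The replication genes had a median log2 fold change of 0.37 and 8 of 11 were above 0, while the mitosis genes had a median of 0.01 with 11 of 22 above 0, beside 0.05 for all genes tested. Within experiments the median log2 ratio of the mitosis genes, at a pseudocount of 1 CPM, was 1.10 in experiment 1 and -1.04 in experiment 2, so the experiments went opposite ways. For replication genes it was 1.34 and 0.12.

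In endothelial-like wells Mki67 (ENSMUSG00000031004.7) stood at 78.9 and 212 CPM in the control pools and 11.8 and 50.2 CPM in the diabetes pools. Its log2 fold change was -2.35 (SE 0.49, edgeR unadjusted p = 0.00104, adjusted p = 0.793). DESeq2 called it (adjusted p = 0.00582). With 1 pool left out, edgeR gave -2.75 without the control pool of experiment 1 (adjusted p = 0.00699), where control is a lone pool, but -1.13 without the control pool of experiment 2 (adjusted p = 0.641) and -1.43 without the diabetes pool of experiment 1 (adjusted p = 1). Without the diabetes pool of experiment 2 it was -3.75 (adjusted p = 0.081), and with 4 pools and no block the adjusted p was 1. The mitosis genes tested there had a median log2 fold change of -2.57, 20 of 21 below 0, and the replication genes -0.74, 9 of 11 below 0, beside 0.05 for all genes. Top2a (ENSMUSG00000020914.15) stood at 106 and 126 CPM in control and at 0 and 62.6 CPM in diabetes (log2 fold change -3.66, SE 1.71, edgeR adjusted p = 1). These sums follow the placement of very few wells: 1 and 3 local maxima in control and 0 and 1 in diabetes. Without the maxima the endothelial-like mitotic sum was 4.43 and 59.9 CPM in control and 27.5 and 73.9 CPM in diabetes. Without the wells within 5 rows of a maximum as well, it was 4.43 and 39.4 CPM against 18.2 and 19 CPM. In experiment 2 control was then the higher. When the diabetes pool of experiment 2 was left out, Prc1, a midzone microtubule bundler, and Top2a passed in edgeR (adjusted p = 0.0248 and 4.23e-07), but diabetes was then a single pool with 1 read of Prc1 and 0 of Top2a, and its spread was taken from the control pools.

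**Figure D5:**
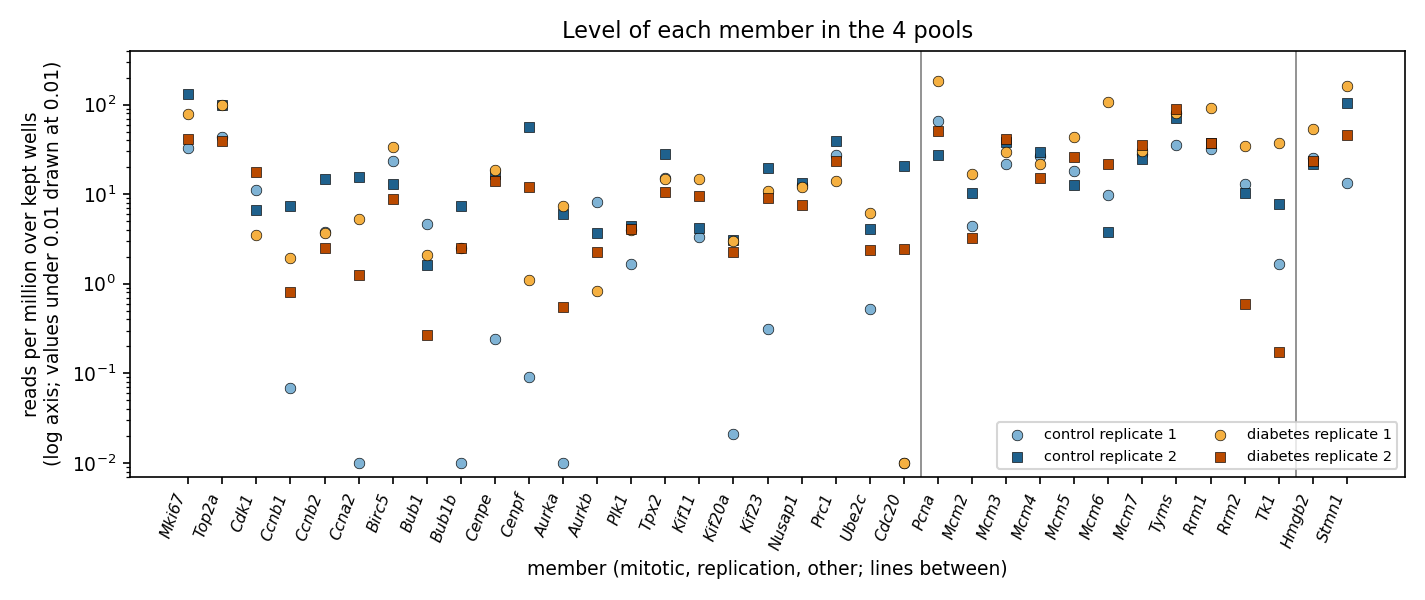
Level of each of the 35 genes (CPM, log axis) in the summed kept wells of the 4 pools, control and diabetes in experiments 1 and 2. Mcm6 is at 9.87 and 3.74 CPM in control against 107 and 21.9 CPM in diabetes, and most mitosis genes have overlapping groups.

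In immune-like wells the mitotic sum was 0 and 1949 CPM in control and 1087 and 64.3 CPM in diabetes, and the replication sum 136 and 426 CPM against 1764 and 168 CPM. The median log2 fold change was -1.41 for the 13 mitosis genes tested and 2.23 for the 9 replication genes, beside 1.03 for all genes, a median that moved to 0.65 with DESeq2's size factors in edgeR and to 0.45 without the block. The control sums rest on 7 and 6 wells. Without the first of these pools Cenpf and Ccnb2, a mitotic cyclin, passed in edgeR (adjusted p = 0.000627 and 0.0422). Control was then a single pool with no replicate, in which 1 well held 465 of 466 Cenpf reads and 190 of 191 Ccnb2 reads. In mesangial-like wells the mitotic sum was 9.53 and 420 CPM in control and 1.87 and 207 CPM in diabetes, with a median log2 fold change of -0.60 for the 7 mitosis genes tested beside -0.11 for all genes. These sums rest on 30 and 67 control wells and on 8 and 24 diabetes wells. Without the local maxima they were 9.53 and 27.9 CPM in control and 1.87 and 50.7 CPM in diabetes.

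Other genes of the cell cycle were taken from 4 lists, and none passed the adjusted threshold over all kept wells. Of 45 further mitosis genes 43 were tested, with 26 above 0 and a median log2 fold change of 0.47. Cdca5, or sororin, which protects sister chromatid cohesion, stood at 14.3 and 14.8 CPM in control and 0 and 0 CPM in diabetes (edgeR unadjusted p = 0.00389, adjusted p = 0.338). Cdkn3, a phosphatase, was at 0 and 0.186 against 13.2 and 3.61 CPM. Cdca5 was detected in 6 of the 14 local maxima and 1 of the 613 wells that were not mitotic, and Cdkn3 in 3 and 4, so these levels rest on few wells. Of 34 further replication genes all were tested (24 above 0, median 0.62). Of 18 genes of cell cycle entry 11 lay above 0 (median 0.22), with Foxm1, the transcription factor of the G2 and M programme, at 15.1 and 16.3 CPM in control and 2.08 and 0.316 CPM in diabetes (adjusted p = 0.665). Among 13 inhibitors tested 8 lay above 0 (median 0.23), and Cdkn1a, or p21, reached 70.1 and 149 CPM in the control pools against 140 and 225 CPM in the diabetes pools (log2 fold change 0.85, SE 0.32, adjusted p = 0.667).

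In the 14 local maxima the condensin genes Smc2 and Smc4 were detected in all 14, Ncapg and Pttg1, or securin, in 11, and Foxm1 in 6, against none of the 613 other wells for Foxm1. Cyclin D1 (Ccnd1), which links growth signals to G1, was detected in 13 of the 14 but also in 74.1% of the other wells. The inhibitors were found in both: Cdkn1a in 10 of 14 and 38.7%, Cdkn1c, or p57, in 4 of 14 and 36.9%.

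The genes outside these lists whose counts most followed the number of mitosis genes per well were Knl1, a kinetochore scaffold (mean Spearman correlation 0.47), Pclaf, a PCNA-binding factor (0.45), and Lockd, a noncoding RNA (0.44). Others were Esco2, a cohesin acetyltransferase (0.40), Zwilch (0.39), Slfn9 (0.39), Ncapg2 (0.39), Rad54l (0.38) and Mxd3 (0.38). The correlation was averaged over 248 wells of experiment 1 and 391 of experiment 2, which share libraries, depth and, between neighbouring rows, possibly reads. Knl1 was detected in 9 of the 14 maxima and 0.326% of the other 613 wells, and Pclaf in 11 and 1.31%.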

How the data were processed

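Fluidigm C1 wells of pooled glomeruli were read as the expected counts per gene that the authors deposited, 1 table per experiment. Of values above 0, 74.1% and 79.3% were whole, and they were rounded for tests. A table of spike-in counts deposited by the authors for experiment 1 served as a depth check only. Per the submitters' processing notes, cutadapt 1.11, STAR 2.4.2a, BWA 0.7.17-r1188, featureCounts 1.5.1 and mm10 were used, and no source used here gives their order and roles. No molecular identifiers are in the tables, so reads are not independent molecules and exact Clopper-Pearson 95% intervals cover counting error only. Of 45792 gene identifiers, 45229 matched GENCODE M21.

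Wells imaged with 1 cell, at least 500 genes and at most 30% mitochondrial reads were clustered (scanpy 1.11.5, 2000 variable genes, 15 components, resolution 0.8) after removing 146 cell cycle genes, and named from marker lists. Doublets were treated through the imaged cell number alone, without a caller. Counts were summed per pool and class and tested with edgeR 4.0.16 (quasi-likelihood, TMM, Benjamini-Hochberg over all genes tested), with experiment as a block. DESeq2 1.42.0, other filters, thinning to 10000 reads and leaving out each pool were alternatives. The well titles name both pools of an experiment as columns of 1 numbered run, which is the source of the pairing, and the correlation of same-numbered pools' deviations was 0.18 over all kept wells, 0.14 in endothelial-like, 0.12 in mesangial-like and 0.07 in immune-like wells. On simulated counts for all kept wells (16710 genes), edgeR recovered 75% of 100 genes changed 4-fold and 100% of 100 changed 16-fold. It made 4 false calls there and 22 in immune-like wells. Every gene was given the same relative spread, experiments did not differ, and only genes with ample reads in the smallest pool were changed. The shares recovered are therefore not the power for the members.

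The named genes were all 35 members, the 2 highest and 2 lowest of each further list, any gene of those lists that passed, and the 10 genes most alike, of which 1 is not reported here. Genes of those lists in the description of local maxima were chosen after their values were seen. The members and lists were chosen with earlier results of these data known. Pools are the replicates, and p-values rest on 2 pools per group only. edgeR draws each gene's spread between pools partly from other genes. The median weight given to them, as prior degrees of freedom, was 5.56 in all kept, 7.77 in endothelial-like and 10.96 in mesangial-like wells. For immune-like wells it was infinite, so the spread of the median gene came wholly from other genes. No well names or identical count columns were repeated. R 4.3.3 and Python 3.11.15 were used.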

Additional observations from a re-analysis of the deposited data

Results flagged for a closer look

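Signal appeared in wells outside the comparisons. Of the wells imaged with 0 cells, 13 held 5 or more mitosis genes, and 12 of these lay within 5 rows of a local maximum. Of the wells imaged with more than 2 cells or debris, 4 held 5 or more. Across 2000 variable genes, wells imaged empty but holding at least 1000 reads correlated with a kept well 1 row away in the same array column at a median r of 0.61 in experiment 1 (177 pairs) and 0.52 in experiment 2 (183 pairs). At 2 rows the median was 0.14 and 0.13, and for the adjacent well of the same row it was 0.01 in both. These pairs share an array and a column, and the cause was not tested.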

How the results depend on the processing

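The difference in the share of mitotic wells over all kept wells (0.584 percentage points) changed sign with 1 count as detection (-0.937), with no filter on wells (-0.0815), and with local maxima within 5 rows (-0.0464) or 3 rows (-0.0267), the last 2 added after seeing the data. Leaving out 1 pool gave -1.96 to 3.12, with reversals without control replicate 1 (-1.96) and without diabetes replicate 2 (-0.247). In endothelial-like wells (-1.32) it reversed when clusters used all variable genes (0.185), and leaving out 1 pool gave -4.12 to 1.49, with reversals without control replicate 2 (0.881) and without diabetes replicate 1 (1.49). The other 15 alternatives kept the endothelial-like sign, with -2.31 for thinned wells and -2.07 for local maxima within 5 rows. The difference for replication wells (3.35) kept its sign as a mean of pools in the 13 alternatives run, 2.23 to 4.47 with a pool left out. Within experiment 2, however, control was the higher with 1 count, with thinned wells (also at 1 count) and with local maxima. The cause of the reversals was not tested.

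Members passing edgeR's threshold numbered 0 in each class. DESeq2 gave 1 over all kept wells (Mcm6) and 1 in endothelial-like wells (Mki67), and leaving out 1 pool gave 0 to 1 over all kept wells, 0 to 2 in endothelial-like, 0 to 0 in mesangial-like and 0 to 2 in immune-like wells. Without the replicate block, 0 members passed in each class. Over all genes the calls were 12, 4, 2 and 3 in all kept, endothelial-like, mesangial-like and immune-like wells, 1, 2, 0 and 0 without the block, and 594, 97, 68 and 11 in DESeq2. Without a filter on low counts 36, 14, 30 and 13 genes passed, with thinned wells 85, 12, 9 and 2, with no filter on wells 0, 1, 0 and 1, and without wells near a maximum 11, 1, 7 and 3. With a pool left out they ranged from 9 to 170, 16 to 182, 6 to 37 and 0 to 277. The median log2 fold change of the mitosis genes ranged from -0.9 to 1.68 with a pool left out. Fits with a pool left out have no block and take a lone pool to vary like the other group. The median kept well of experiment 1 held only 32222 and 43577 reads, which limits what could be detected there.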
